A study of Homo sapiens with 12 samples.

Results

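Genes for secreted mucosal defence proteins, membrane mucins, cell adhesion molecules of the CEACAM family and the tetherin BST2 were followed in FaDu cells, an established human head and neck squamous cell carcinoma (HNSCC) line, with and without STING. The 10 genes were chosen by name out of 58288 listed genes, with earlier results of these data known. They are LCN2, SLPI and PI3, the mucins MUC1, MUC4 and MUC16, CEACAM1, CEACAM5 and CEACAM6, and BST2. Each symbol matched a single gene. RNA came from FaDu STING WT cells and FaDu STING KO cells, each unirradiated or after 4 daily fractions of 2 Gy (RT), with 3 libraries in each of the 4 groups. According to the study's methods, both cell populations carried lentiviral Cas9 and a guide RNA and were selected with puromycin, WT cells with a non-targeting guide and KO cells with a single STING guide. The KO cells therefore stand for 1 guide, and effects of other guides were not measured here. Values are transcripts per 1000000 (TPM), which correct for transcript length and sum to 1000000 in each library, so levels can be compared between genes. The read depth behind a value is unknown.

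Mucosal surfaces are covered by mucins, large glycoproteins with dense O-linked sugars, of which MUC1, MUC4 and MUC16 are anchored in the membrane. LCN2 (lipocalin 2) binds bacterial siderophores and withholds iron, and SLPI and PI3 (elafin) are small secreted inhibitors of neutrophil elastase that also act against microbes. CEACAMs are immunoglobulin-like adhesion molecules of epithelia, of which CEACAM1 carries a cytoplasmic tail with inhibitory motifs in its long form, while CEACAM5 and CEACAM6 are held by a lipid anchor. BST2 (tetherin) holds budding enveloped virus particles at the cell surface and is a classical interferon-induced gene. STING, encoded by TMEM173, signals from cytosolic DNA through TBK1 to IRF3 and NF-kB, which switch on interferon genes and inflammatory genes.

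Sequence upstream of the start sites is shown first, because 3 CEACAM genes with related promoters differed in level, and because BST2 and CEACAM1 both hold a core of the interferon-stimulated response element (ISRE). Windows of 250 bases before the RefSeq starts (GRCh38.p14) were searched on both strands for GAAANNGAAA (ISRE core), TTCNNNGAA (core of the gamma-activated site, GAS) and GGGAANNNCC (kappa-B core). The table held 10 windows for 8 of the genes. Bases that the annotation places in a UTR of the gene are left out, and for BST2 only 30 bases around the cores are shown, because they lie in an exon of MVB12A on the other strand. Capitals mark the ISRE core in BST2 and CEACAM1 and the kappa-B core in LCN2. All sequences are from RefSeq and are written 5′ to 3′ on the strand of the gene. They are BST2 (minus strand, chr19:17405738-17405767), CEACAM1 (minus strand, chr19:42528510-42528731), CEACAM5 (plus strand, chr19:41708376-41708584), CEACAM6 (plus strand, chr19:41755280-41755420) and LCN2 (plus strand, chr9:128149265-128149452).
BST2: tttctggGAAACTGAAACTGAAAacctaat
CEACAM1: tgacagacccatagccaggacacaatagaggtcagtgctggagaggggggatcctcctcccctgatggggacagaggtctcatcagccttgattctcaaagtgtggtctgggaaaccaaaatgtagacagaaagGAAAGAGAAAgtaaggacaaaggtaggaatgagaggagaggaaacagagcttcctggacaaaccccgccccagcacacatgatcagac
CEACAM5: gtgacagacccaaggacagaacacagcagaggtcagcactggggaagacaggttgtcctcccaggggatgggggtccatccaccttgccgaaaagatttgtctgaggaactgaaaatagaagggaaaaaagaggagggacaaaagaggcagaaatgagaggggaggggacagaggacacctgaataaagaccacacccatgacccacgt
CEACAM6: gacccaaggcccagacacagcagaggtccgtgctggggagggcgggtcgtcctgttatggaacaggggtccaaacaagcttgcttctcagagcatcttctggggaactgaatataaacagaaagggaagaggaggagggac
LCN2: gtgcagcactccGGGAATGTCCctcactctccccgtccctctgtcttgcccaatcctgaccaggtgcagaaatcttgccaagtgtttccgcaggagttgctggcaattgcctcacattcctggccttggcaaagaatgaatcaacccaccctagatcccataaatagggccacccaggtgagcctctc

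BST2 held 2 overlapping ISRE cores, 130 to 121 and 124 to 115 bases before its start. It also held a GAS core that overlaps the first of them (136 to 128 bases before the start), a second GAS core (58 to 50) and a kappa-B core (187 to 178). CEACAM1 held 1 ISRE core, 116 to 107 bases before its start, with no match to the other motifs. LCN2 held a kappa-B core 176 to 167 bases before its start, and MUC4 a GAS core 11 to 3 bases before its start. The windows of CEACAM5, CEACAM6, MUC1 and MUC16 held none of the 3 motifs. For comparison, 3.02% of all 35116 windows held the ISRE core, 6.57% the GAS core and 6.02% the kappa-B core. Of the 202 genes that were lower in unirradiated STING KO cells (limma, adjusted p under 0.05), 129 had windows. The ISRE core was in 36 of these 176 windows (20.5%), the GAS core in 9.66% and the kappa-B core in 7.39%. For the ISRE core the share was 2.39% in windows of all tested genes and 2.82% in those of genes higher in unirradiated KO cells. Of 18 interferon-induced genes listed for reference, 13 had windows, and 12 of these 19 windows held the ISRE core (63.2%). The set of lower genes was taken from these same data and includes BST2 and CEACAM1. The reference list was chosen with earlier results known, so both shares are a description. In the aligned windows, CEACAM1 was identical to CEACAM5 at 66.2% and to CEACAM6 at 68.2% of columns, and CEACAM5 to CEACAM6 at 74.6%. BST2, which is unrelated, reached 48.5% to 51.4% against the same windows. A match is a run of letters and was not tested as a binding site.

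**Figure D1:**
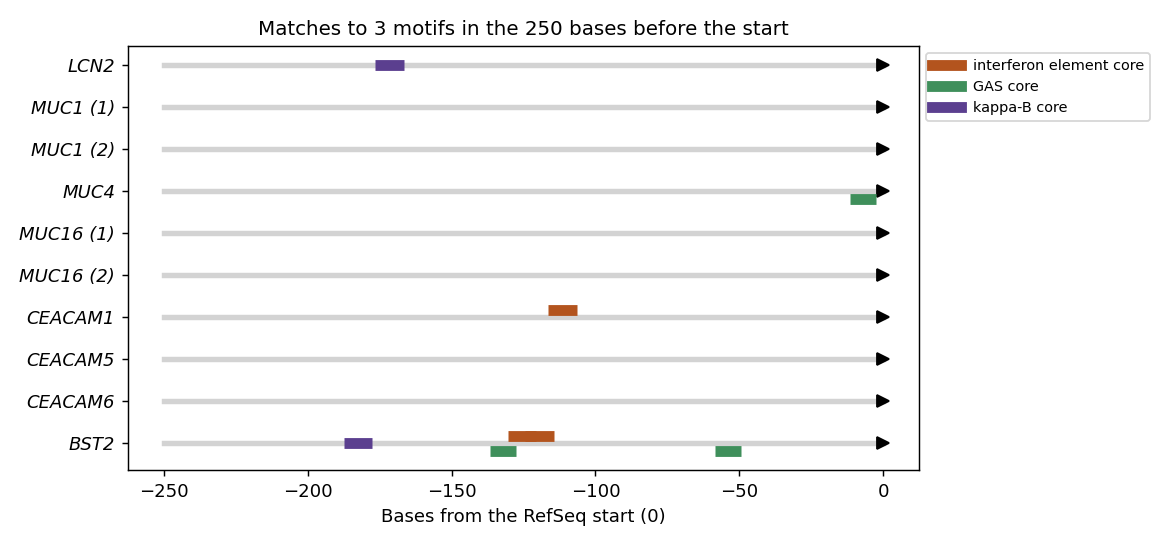
Positions of the 3 motif cores in the 250 bases before each RefSeq start (horizontal axis, bases from the start at 0), with 1 line per window and 10 windows for 8 genes. The interferon element core is seen in BST2, with 2 overlapping matches, and in CEACAM1, with 1, and in no other window.

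Each library listed 14860 to 15292 genes at a TPM of at least 1, and at most 10.8% of a library's TPM came from its 10 highest genes. TMEM173 served as the check of the labels and was at 21.1 to 26.1 TPM in the 6 WT libraries and 5.18 to 7.41 TPM in the 6 KO libraries, so RNA of the targeted gene remained in KO cells. The squamous markers KRT5, KRT14, KRT6A, TP63 and KRT17 were all expressed, with a lowest TPM of 48.5 in any library. Of the simple or secretory epithelial markers, the keratins KRT8 and KRT18 were at 631 TPM or more. MUC5AC, MUC5B and SPDEF stayed below 0.294 TPM and TFF3 was listed at 0 in all 12 libraries. The summed TPM of the 5 leukocyte markers was 3.58 to 5.74, mostly CD14, with PTPRC listed at 0 in 7 libraries and CD3E in 11, and that of the 4 fibroblast markers was 6.40 to 9.34, mostly COL1A1, with DCN listed at 0 in 11. Sums of 2 marker lists moved with radiation. The 3 endothelial markers summed to 11.5 to 15.9 TPM in unirradiated and 18.3 to 23.9 TPM in irradiated libraries, with PECAM1 at 0.0989 TPM or less and CDH5 leading the sum. The 6 simple or secretory epithelial markers summed to 1871 to 2482 TPM in unirradiated and 2614 to 3193 TPM in irradiated libraries. Nearly all of that sum was KRT8 and KRT18. Between genotypes, the leukocyte sum was 3.58 to 3.99 TPM in unirradiated WT and 4.34 to 5.74 TPM in unirradiated KO libraries, and the endothelial sum 18.3 to 18.6 TPM in irradiated WT and 19.9 to 23.9 TPM in irradiated KO libraries. The part of these markers in the results was not tested. Nothing in the labels tells whether the libraries of a group came from separate cultures, so p-values measure the spread between these libraries. Because these are bulk samples, fewer cells of a type and less RNA per cell cannot be told apart.

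In unirradiated WT cells the order of the levels was SLPI, LCN2, BST2, MUC1, MUC4, PI3 and CEACAM1, with mean TPM of 48.8, 31.9, 22.7, 9.52, 3.93, 2.22 and 1.68, and with MUC16 far below at 0.0839. Libraries of neighbours in this order did not overlap, except PI3 (1.91 to 2.74 TPM) and CEACAM1 (1.54 to 1.97 TPM). CEACAM6 and CEACAM5 were listed at 0 in all 3 of these libraries. The defence proteins SLPI and LCN2 were thus the most abundant of the 10 genes in unirradiated WT cells, while in irradiated WT cells BST2 (28.1 to 31.8 TPM) lay above LCN2 (24.5 to 25.9 TPM) with no overlap. Of the 3 CEACAM genes only CEACAM1 reached 1 TPM in any library. In unirradiated KO cells the order changed in 2 places. BST2 (6.06 to 7.50 TPM) lay below MUC1 (10.6 to 13.3 TPM) with no overlap, and CEACAM1 (0.0266, 0.0558 and 0.112 TPM) had a mean of 0.0648 TPM, below the 0.103 TPM of MUC16 (0.0898 to 0.119 TPM), with 1 CEACAM1 library inside the range of MUC16.

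**Figure D2:**
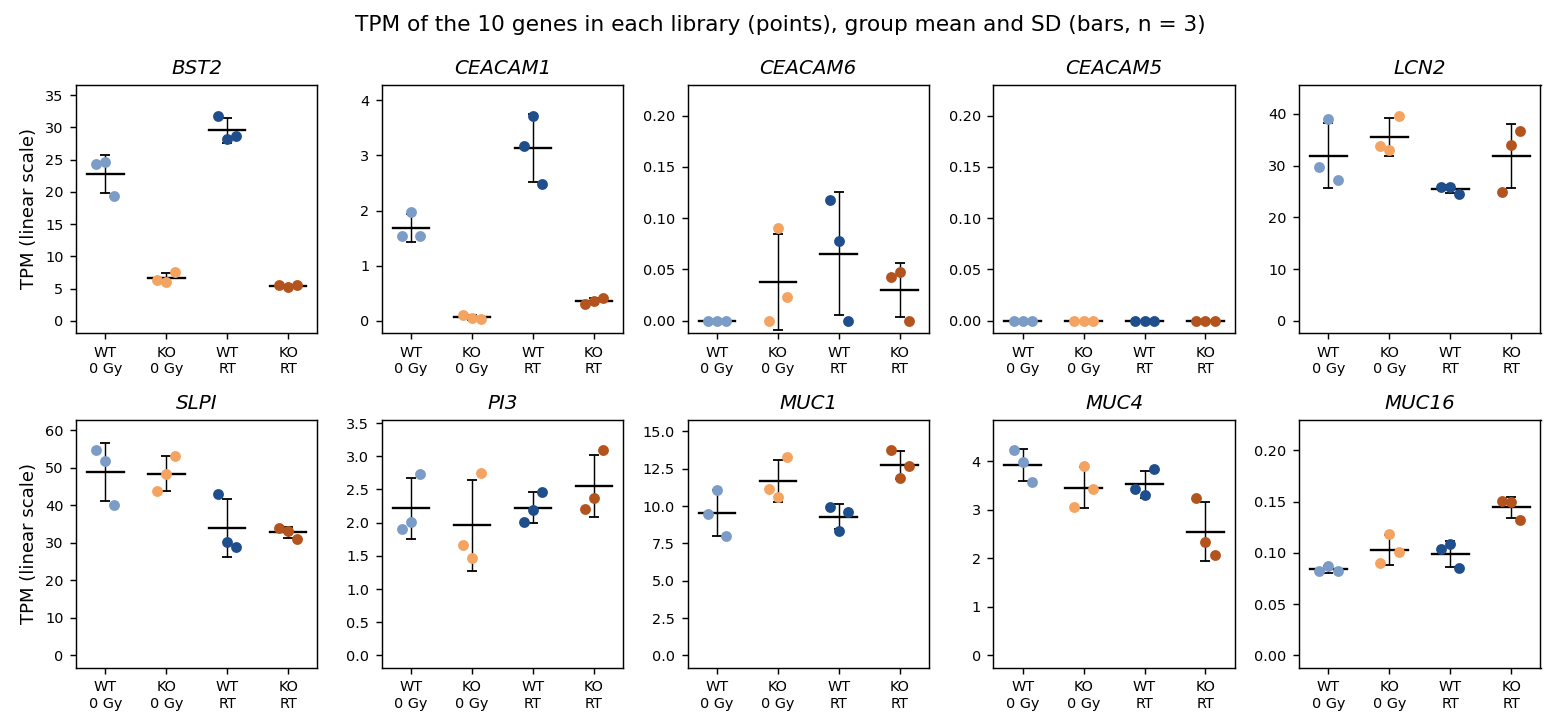
TPM (linear vertical axis, a separate scale for each gene) of the 10 genes in each of the 12 libraries (points), with the mean and SD of the 3 libraries of a group (bars). BST2 and CEACAM1 lie lower in every KO library than in every WT library, CEACAM5 is at 0 throughout, and the other genes overlap between WT and KO in at least 1 arm or lie at or below 0.151 TPM.

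The comparison of STING KO with STING WT asks which of these genes depend on STING in the tumor cells themselves. Of the 10 genes, BST2 and CEACAM1 were lower in KO cells, both without and after radiation, and no other of them was past the threshold in either direction. Of the 7 genes that passed the filter (TPM of at least 1 in 3 or more libraries), 2 were past the threshold of an adjusted p of 0.05 in each arm. CEACAM1 passed that filter only through the WT libraries, where it was high, so its entry into the test was not independent of the difference and the count of 2 is a description. Over all 15973 genes tested with limma, 1.73% were past it in unirradiated cells (1.26% lower in KO) and 3.59% in irradiated cells (2.66% lower in KO). The median log2 fold change of the 7 genes was -0.14 in unirradiated and -0.03 in irradiated cells, against -0.02 and -0.02 over all genes tested. Fold changes from limma are differences of mean log2(TPM + 1), a scale that understates changes of genes with low TPM.

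BST2 (ENSG00000130303.12) lies on the minus strand of chromosome 19, from 17402939 to 17405648 on GRCh38. In unirradiated cells its TPM was 24.3, 24.6 and 19.3 in the WT libraries and 6.25, 6.06 and 7.50 in the KO libraries. The irradiated WT libraries had 31.8, 28.1 and 28.7 TPM and the irradiated KO libraries 5.49, 5.27 and 5.57 TPM. All 6 KO libraries were below all 6 WT libraries. The mean was 22.7 ± 2.97 TPM in WT and 6.60 ± 0.782 TPM in KO (SD, n = 3) without radiation, a ratio of 3.44, and 29.5 ± 2.00 TPM against 5.44 ± 0.154 TPM (SD, n = 3) after it, a ratio of 5.43. The log2 fold change was -1.64 (SE 0.10, limma adjusted p = 1.16e-05) in unirradiated and -2.24 (SE 0.10, limma adjusted p = 7.77e-07) in irradiated cells.

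The gene beside it gave further values, chosen after they were seen. BISPR (ENSG00000282851.1), a non-coding RNA gene on the opposite strand, has exons in 195 of the 250 bases before the BST2 start. Its TPM was 3.87, 3.59 and 2.21 in unirradiated WT and 0.732, 1.17 and 1.42 in unirradiated KO libraries, and 3.33, 4.29 and 2.45 in irradiated WT and 0.854, 1.40 and 1.57 in irradiated KO libraries. WT and KO libraries did not overlap in either arm. On the log2(TPM + 1) scale the difference was -0.99 (limma adjusted p = 0.054) in unirradiated cells, short of the threshold, and -0.93 (limma adjusted p = 0.0456) in irradiated cells.

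CEACAM1 (ENSG00000079385.21; chromosome 19, 42507304 to 42561234, minus strand) was a gene of low level with a large ratio. In unirradiated cells its TPM was 1.54, 1.97 and 1.54 in the WT libraries and 0.112, 0.0558 and 0.0266 in the KO libraries. The irradiated WT libraries had 3.17, 3.72 and 2.49 TPM and the irradiated KO libraries 0.304, 0.365 and 0.408 TPM. Again all KO libraries were below all WT libraries, here with no KO library above 0.408 TPM. The mean was 1.68 ± 0.252 TPM in WT and 0.0648 ± 0.0434 TPM in KO (SD, n = 3) without radiation, a ratio of 26.0. After radiation it was 3.13 ± 0.617 TPM in WT and 0.359 ± 0.0526 TPM in KO (SD, n = 3), a ratio of 8.72. With KO values this near to 0 and no read counts, the size of the first ratio is loosely set. As a log2 ratio of mean TPM it was -4.70, and -5.35 without unirradiated KO replicate 1. On the log2(TPM + 1) scale the fold change was -1.33 (SE 0.13, limma adjusted p = 0.000389) in unirradiated and -1.59 (SE 0.13, limma adjusted p = 6.89e-05) in irradiated cells.

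CEACAM1 overlaps the antisense gene LIPE-AS1, and the strand setting of the counting is not given in the sources used here. LIPE-AS1 (ENSG00000213904.8) was between 0.0951 and 1.92 TPM in the 12 libraries and was past the threshold in none of the comparisons (for KO against WT in unirradiated cells 0.28 on the log2(TPM + 1) scale, limma adjusted p = 0.76). Within annotated transcripts, 0.301% of the 100-base stretches of CEACAM1 were shared with another gene (CEACAM3), and BST2 shared none. CEACAM5 shared 12.6% and CEACAM6 1.73% of theirs with the overlapping gene AC243967.1, which averaged 0.00257 TPM, so their values are less certain.

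CEACAM5 (ENSG00000105388.15; chromosome 19, 41708585 to 41729798, plus strand), the carcinoembryonic antigen, was listed at 0 in all 12 libraries and has no comparison. CEACAM6 (ENSG00000086548.8; chromosome 19, 41750977 to 41772208, plus strand) was listed at 0 in 6 of the 12 libraries. The others lay at 0.0905 and 0.0231 TPM in unirradiated KO, 0.118 and 0.0782 TPM in irradiated WT and 0.0422 and 0.0478 TPM in irradiated KO cells. These values overlapped between groups, with exact permutation p from 0.4 to 0.9 over the 4 comparisons (two-sided, smallest possible p 0.1). The 3 related adhesion genes thus had CEACAM1 at a level the filter passed and its relatives at or near 0. Of 18 other CEACAM family genes in the table only CEACAM19 passed the filter, which differed between KO and WT by -0.09 (limma adjusted p = 0.829) without and 0.03 (limma adjusted p = 0.931) after radiation.

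The secreted defence proteins showed no difference past the threshold between KO and WT cells. SLPI (ENSG00000124107.5; chromosome 20, 45252239 to 45254564, minus strand) was at 54.6, 51.8 and 40.1 TPM in unirradiated WT and 43.8, 48.4 and 53.1 TPM in unirradiated KO libraries. The log2 fold change was -0.004 (95% interval -0.34 to 0.34) without radiation and -0.03 (-0.37 to 0.31) after it. LCN2 (ENSG00000148346.11; chromosome 9, 128149071 to 128153455, plus strand) was at 29.7, 38.9 and 27.1 TPM in unirradiated WT and 33.8, 33.0 and 39.6 TPM in unirradiated KO libraries, a log2 fold change of 0.16 (limma adjusted p = 0.709). PI3 (ENSG00000124102.4; chromosome 20, 45174876 to 45176544, plus strand), a neighbour of SLPI in a cluster of related inhibitor genes, was at 1.91, 2.01 and 2.74 TPM in WT and 1.66, 1.47 and 2.74 TPM in KO libraries. Its log2 fold change was -0.14 (95% interval -0.52 to 0.25). Intervals of this width do not show that the levels were equal.

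None of the 3 mucins had a difference between KO and WT past the limma threshold, for which MUC16 was too low to be tested. MUC1 (ENSG00000185499.16; chromosome 1, 155185824 to 155192916, minus strand) was at 9.95, 8.36 and 9.57 TPM in irradiated WT and 13.7, 11.9 and 12.7 TPM in irradiated KO libraries, with no overlap. The difference of mean log2(TPM + 1) was 0.42 (SE 0.12, limma adjusted p = 0.093), and 0.28 (limma adjusted p = 0.332) in unirradiated cells, where libraries overlapped. MUC4 (ENSG00000145113.21; chromosome 3, 195746765 to 195812277, minus strand), a ligand of the receptor ERBB2, was at 3.42, 3.31 and 3.85 TPM in irradiated WT and 3.23, 2.34 and 2.08 TPM in irradiated KO libraries. These did not overlap either, in the other direction, and differed by -0.36 on the log2(TPM + 1) scale (SE 0.13, limma adjusted p = 0.17). MUC16 (ENSG00000181143.15; chromosome 19, 8848844 to 8981342, minus strand), which carries the CA125 antigen, was at 0.0821 to 0.0876 TPM in unirradiated WT and 0.0898 to 0.119 TPM in unirradiated KO libraries, and at 0.0850 to 0.109 TPM and 0.132 to 0.151 TPM after radiation. KO libraries were above WT libraries in both arms, with ratios of means of 1.23 and 1.45 and an exact permutation p of 0.1 in each, the smallest that 3 libraries against 3 allow (two-sided). At less than 0.2 TPM and with unknown depth these ratios rest on little RNA.

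**Figure D3:**
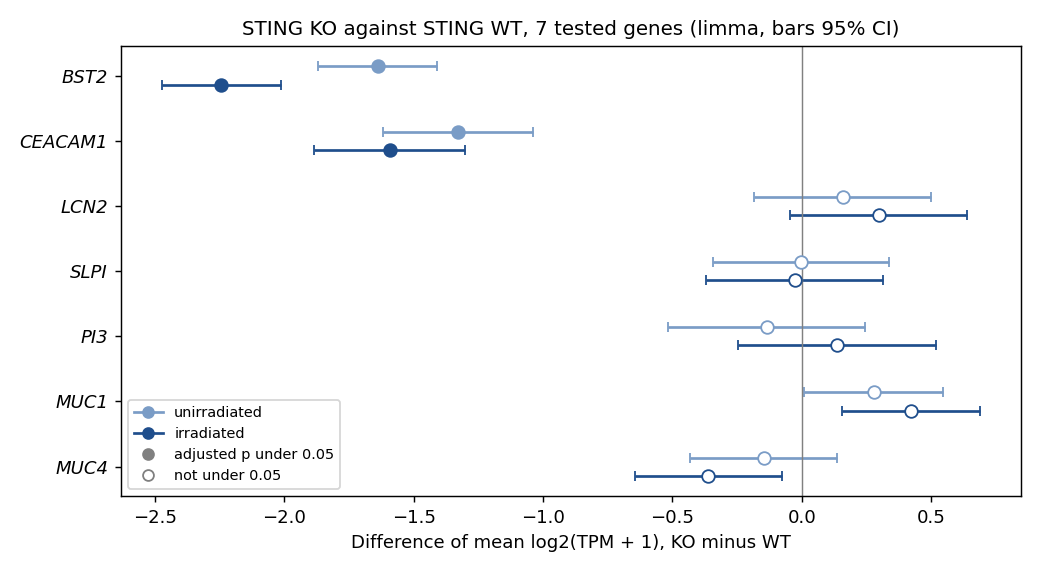
Difference between STING KO and STING WT of mean log2(TPM + 1) for the 7 tested genes (horizontal axis, KO minus WT), without radiation (light) and after it (dark), with 95% intervals from limma. The filled points, past the adjusted threshold, are BST2 at -1.64 and -2.24 and CEACAM1 at -1.33 and -1.59, while the other genes lie between -0.36 and 0.42.

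The comparison of irradiated with unirradiated cells asks what fractionated radiation did to the same genes in each genotype. In WT cells CEACAM1 was the only one of the 7 tested genes past the threshold, and it was higher. Over all genes tested 3.74% were past the threshold in WT cells (2.24% higher after radiation) and 3.69% in KO cells. In KO cells 0 of the 7 genes were past it with limma, and 4 had an unadjusted p under 0.05, as did 2896 of the 15973 genes tested. The median log2 fold change of the 7 genes was -0.02 in WT and -0.16 in KO cells, against 0.02 and 0.02 over all genes tested.

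CEACAM1 rose in WT cells from 1.54 to 1.97 TPM to 2.49 to 3.72 TPM, a ratio of means of 1.86, with no overlap. The log2 fold change was 0.62 (SE 0.13, limma adjusted p = 0.032). This call was close to the threshold. It held in 10 of 18 alternatives and was lost with a pseudocount of 0.1 (adjusted p = 0.154), with the replicate block (0.0563), in a fit to only the 6 WT libraries (0.129), and without unirradiated WT replicate 1 (0.0999) or 3 (0.0945), irradiated WT replicate 1 (0.107) or 2 (0.113) or unirradiated KO replicate 3 (0.0501). In KO cells it was at 0.0266 to 0.112 TPM before and 0.304 to 0.408 TPM after radiation, also without overlap, and the ratio of means was 5.54. That difference was 0.35 on the log2(TPM + 1) scale (SE 0.13, limma adjusted p = 0.184). With a pseudocount of 0.1 it was 1.50 with a limma adjusted p of 0.02, past the threshold. Without unirradiated KO replicate 1 the log2 ratio of mean TPM in KO cells went from 2.47 to 3.12. Irradiated KO cells remained far below unirradiated WT cells in CEACAM1, with a highest KO value of 0.408 TPM and a lowest WT value of 1.54 TPM.

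BST2 moved in opposite directions in the 2 genotypes without passing the threshold in either. In WT cells it was at 19.3 to 24.6 TPM before and 28.1 to 31.8 TPM after radiation (log2 fold change 0.37, limma adjusted p = 0.0843). In KO cells it was at 6.06 to 7.50 TPM before and 5.27 to 5.57 TPM after (log2 fold change -0.23, limma adjusted p = 0.266). Libraries did not overlap in either genotype. The difference between the radiation effects was -0.60 (SE 0.15, limma adjusted p = 0.575). For this difference 0 of the 7 genes were past the limma threshold and 1 had an unadjusted p under 0.05, while over all genes 3 were past it (0.0188%) and 1056 had an unadjusted p under 0.05. For CEACAM1 the difference was -0.26 (95% interval -0.68 to 0.15, limma adjusted p = 0.86), and its direction depended on the pseudocount. With a pseudocount of 0.1 it was 0.66 (limma adjusted p = 0.848), the same sign as the ratios of means of 5.54 in KO and 1.86 in WT cells.

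SLPI was lower after radiation in both genotypes, short of the threshold. Irradiated WT libraries had 42.9, 30.1 and 28.8 TPM, and irradiated KO libraries 33.9, 33.2 and 31.1 TPM. Against the unirradiated libraries given above, WT libraries overlapped through irradiated replicate 1, and KO libraries did not overlap. The log2 fold change was -0.52 (SE 0.15, limma adjusted p = 0.1) in WT and -0.55 (SE 0.15, limma adjusted p = 0.0847) in KO cells. Without irradiated WT replicate 1 both were past the threshold, at -0.70 (limma adjusted p = 0.0296) and -0.55 (limma adjusted p = 0.0369). In a fit to only the 6 KO libraries the adjusted p was 0.0463. The difference between the genotypes was -0.03 (95% interval -0.51 to 0.46).

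LCN2 was at 25.9, 25.9 and 24.5 TPM in irradiated WT and 25.0, 33.9 and 36.8 TPM in irradiated KO libraries. The WT values lay below the unirradiated WT libraries without overlap, by -0.30 on the log2(TPM + 1) scale (limma adjusted p = 0.341), and the KO values overlapped theirs (-0.16, limma adjusted p = 0.643). PI3 differed by 0.01 in WT and 0.28 in KO cells, MUC1 by -0.02 and 0.12, and MUC4 by -0.12 and -0.34, with limma adjusted p of 0.194 or more. MUC16 had a ratio of means of 1.18 in WT (exact permutation p = 0.2) and of 1.40 in KO cells (exact permutation p = 0.1, two-sided, the smallest possible), the latter without overlap.

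**Figure D4:**
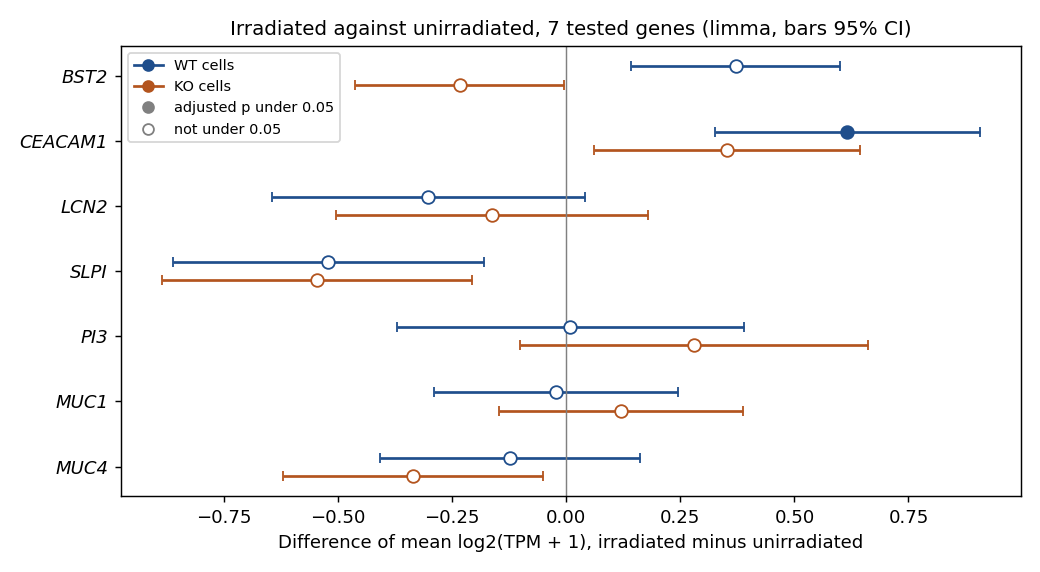
Difference between irradiated and unirradiated cells of mean log2(TPM + 1) for the 7 tested genes (horizontal axis), in WT (blue) and KO (orange) cells, with 95% intervals from limma. CEACAM1 in WT cells, at 0.62, is the only filled point, SLPI lies at -0.52 and -0.55, and BST2 lies on opposite sides of 0 at 0.37 and -0.23.

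The tested genes whose 4 group means lay nearest to those of CEACAM1 were PMAIP1, PPM1K and DHX58, by Euclidean distance of centered mean log2(TPM + 1) over the 4 groups (12 libraries). PMAIP1, the BH3-only protein NOXA, was nearest at 0.16, with group means of 25.2 TPM in unirradiated WT, 9.27 TPM in unirradiated KO, 38.2 TPM in irradiated WT and 10.7 TPM in irradiated KO cells. CEACAM1 had 1.68, 0.0648, 3.13 and 0.359 TPM in the same order of groups. The log2(TPM + 1) scale compresses changes at such low levels. Genes near to CEACAM1 on it therefore need not share its ratios of TPM. PPM1K, a mitochondrial phosphatase, lay at 0.19 and DHX58, an interferon-induced RNA sensor, also at 0.19. Nearest to BST2 were XAF1 at 0.21, OAS1 at 0.22 and GBP4 at 0.26, which are known as interferon-induced genes. OAS1 had group means of 34.8, 9.77, 47.3 and 7.29 TPM in the same order of groups, beside 22.7, 6.60, 29.5 and 5.44 TPM for BST2. CEACAM1 and BST2 lay at a distance of 0.66 from each other, with BST2 at rank 48 of the 15973 tested genes by distance from CEACAM1. These distances describe 4 points a gene and were not tested.

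Lists of related genes were counted in the same fits. Of 5 lists (other mucins, other CEACAM genes, other antimicrobial and antiprotease proteins, enzymes and secretory factors of mucin assembly and O-glycosylation, and binding partners and receptors), 125 of 127 genes were in the table and 42 were tested. Past the limma threshold were 3 genes for KO against WT in unirradiated cells, all lower, and 7 in irradiated cells, 6 of them lower, beside 1.73% and 3.59% of all genes tested. For radiation there were 5 in WT cells and 4 in KO cells, beside 3.74% and 3.69% of all genes tested. Beside these stood 18 interferon-induced reference genes, all with a negative log2 fold change between KO and WT in both arms. Of them 17 were past the threshold in unirradiated and 18 in irradiated cells, with median log2 fold changes of -2.11 and -2.75. This list was chosen with earlier results of these data known, so its counts and range are a description. RSAD2 of this list, for example, passed the filter only through WT libraries, with KO values of 0.107 TPM or less. Of 18 genes induced by NF-kB or IL-17, 1 was past the threshold in each arm, IL1B without radiation (-0.30, limma adjusted p = 0.0274, up to 0.118 over 19 alternatives) and IL6 after it (-1.09, limma adjusted p = 0.00755). After radiation 7 of the 18 interferon reference genes were past the threshold in WT cells, all higher, and 0 were past it in KO cells. The log2 fold change was positive for 15 of the 18 in WT and for 6 in KO cells. For the difference between the radiation effects 0 of the 18 were past the limma threshold, and 11 had an unadjusted p under 0.05. The WT calls held in 19 of 19 alternatives for ISG15, 18 of 19 for IFIT1 and IFIT2 and 14 of 19 for MX1. They held in only 9 of 19 for OASL, 9 of 18 for RSAD2 and 6 of 19 for IFI27. IFI27 differed by 1.08 in WT (limma adjusted p = 0.0461) and 1.05 in KO cells (limma adjusted p = 0.0513). Of the NF-kB and IL-17 list CXCL8, IL1B, IL6 and TNFAIP3 were past the threshold and higher in WT cells, and CXCL8, IL1B and TNFAIP3 in KO cells. The difference between the radiation effects was past the threshold for 0 of these 18 genes. The chemokine CXCL8, for example, differed by 1.20 in WT (limma adjusted p = 0.00158) and 0.72 in KO cells (limma adjusted p = 0.0231, up to 0.0824 over 19 alternatives). For the KO effect without radiation BST2 lay within the range of the interferon reference genes (-6.16 for OASL to -0.42), as did CEACAM1, and the other 5 tested genes lay above that range. The 3 related genes past the threshold in that comparison, PODXL (-1.25), WFDC2 (-0.51) and PLSCR1 (-0.49), also lay within it. A range this wide takes in genes by the size of their change alone. A place within it is a description, and induction of these genes by interferon was not tested.

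Among other mucins PODXL (podocalyxin, a sialomucin of the cell surface) was lower in KO cells. Its TPM was 14.6, 20.1 and 12.7 in unirradiated WT and 5.76, 5.87 and 6.22 in unirradiated KO libraries, and 15.8, 16.0 and 13.1 in irradiated WT and 5.30, 4.42 and 4.30 in irradiated KO libraries. The libraries did not overlap, and the log2 fold change was -1.25 (SE 0.15, limma adjusted p = 0.00142) without and -1.50 (SE 0.15, limma adjusted p = 0.000244) after radiation. Of the 5 other mucins tested, PODXL was the only one past the threshold between genotypes. The gel-forming mucin MUC2, chosen after its values were seen, was past it for radiation in KO cells, from 2.11, 3.05 and 3.13 TPM to 4.88, 7.33 and 7.97 TPM (1.03, limma adjusted p = 0.0325, up to 0.105 over 19 alternatives).

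Of 5 tested antimicrobial and antiprotease genes outside the 10, WFDC2 was lower in KO cells in both arms. WFDC2 (HE4) belongs to the same protein family as SLPI and PI3, with the four-disulfide core that gives the family its name. It was at 18.2, 19.0 and 14.8 TPM in unirradiated WT and 10.8, 11.7 and 12.9 TPM in unirradiated KO libraries, and at 16.7 to 19.9 TPM and 11.1 to 11.6 TPM after radiation, with no overlap. The log2 fold change was -0.63 (SE 0.10, limma adjusted p = 0.00703) in irradiated cells, a call that held in 19 of 19 alternatives. In unirradiated cells it was -0.51 (SE 0.10, limma adjusted p = 0.0294), a call that held in 10 of 19. It was lost there with no filter on low values (0.0602), with the replicate block (0.088), in a fit to only the 6 unirradiated libraries (0.168), and without unirradiated WT replicate 1 (0.104) or 2 (0.11), unirradiated KO replicate 1 (0.11) or 2 (0.107), irradiated WT replicate 1 (0.0537) or irradiated KO replicate 2 (0.0501). The galectin ligand LGALS3BP, chosen after its values were seen, was lower in irradiated KO cells (123 to 157 TPM against 294 to 458 TPM in WT, -1.44, limma adjusted p = 0.0258, up to 0.0988 over 19 alternatives). RNASE7, an antimicrobial ribonuclease of skin, was at 2.60 ± 0.539 TPM before and 4.35 ± 0.315 TPM after radiation in WT cells (SD, n = 3), without overlap (0.58, limma adjusted p = 0.0362), and this call held in 7 of 18 alternatives, with adjusted p up to 0.124.

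Of 19 tested genes of mucin assembly and O-glycosylation, 0 were past the limma threshold between KO and WT in unirradiated cells, and 5 had an unadjusted p under 0.05, as did 2292 of all 15973 genes tested. In irradiated cells GALNT14 (-0.51, limma adjusted p = 0.0369, held in 8 of 19 alternatives) and GALNT7 (-0.37, limma adjusted p = 0.0104, held in 18 of 19), which add the first sugar of O-glycans and were named here after their values were seen, were lower in KO. ST6GALNAC2, a sialyltransferase, was lower after radiation in WT cells, from 15.4 to 18.8 TPM to 8.16 to 10.8 TPM (-0.88, SE 0.11, limma adjusted p = 0.00164). In KO cells it was also lower without overlap, short of the threshold (-0.345, limma adjusted p = 0.108). Its difference between the radiation effects was not past the threshold (0.53, limma adjusted p = 0.639). B3GNT3, which extends core O-glycans, went in WT cells from 6.63 to 8.01 TPM to 11.3 to 12.4 TPM (0.61, SE 0.11, limma adjusted p = 0.0173). In KO cells it differed by 0.32 (limma adjusted p = 0.169), with overlap. The WT call of B3GNT3 was lost without unirradiated WT replicate 1 (0.05) or 2 (0.062) or irradiated WT replicate 1 (0.0617) or 3 (0.0631).

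Of 12 tested partners and receptors, PLSCR1, an interferon-induced scramblase listed for its binding to SLPI, was lower in KO cells. Its TPM was 90.4, 104 and 96.1 in unirradiated WT and 72.3, 60.2 and 73.3 in unirradiated KO libraries, and 106 to 110 against 57.3 to 65.8 after radiation. KO minus WT, the log2 fold change was -0.49 (SE 0.08, limma adjusted p = 0.0129) and -0.83 (SE 0.08, limma adjusted p = 0.000313). The first call was lost without unirradiated WT replicate 2 (0.0592) and in a fit to only the 6 unirradiated libraries (0.109). TGM1, a transglutaminase that crosslinks elafin into the cell envelope, was lower after radiation in both genotypes, with log2 fold changes of -0.62 in WT (limma adjusted p = 0.0223, up to 0.0787 over 19 alternatives) and -0.83 in KO cells (limma adjusted p = 0.00542, held in 19 of 19). EGFR, a receptor that associates with MUC1, was lower after radiation in WT cells (log2 fold change -0.23, limma adjusted p = 0.0322, up to 0.15 over 19 alternatives). In KO cells it was also lower without overlap, short of the threshold (-0.12, limma adjusted p = 0.212). ANXA2 was higher in irradiated KO than irradiated WT cells (0.23, limma adjusted p = 0.0115, held in 16 of 19), and ANXA2 (0.19, limma adjusted p = 0.0333, held in 6 of 19) and MSLN, the partner of MUC16 (0.67, limma adjusted p = 0.0371, held in 7 of 18), were higher after radiation in KO cells. These last genes were named after their values were seen.

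**Figure D5:**
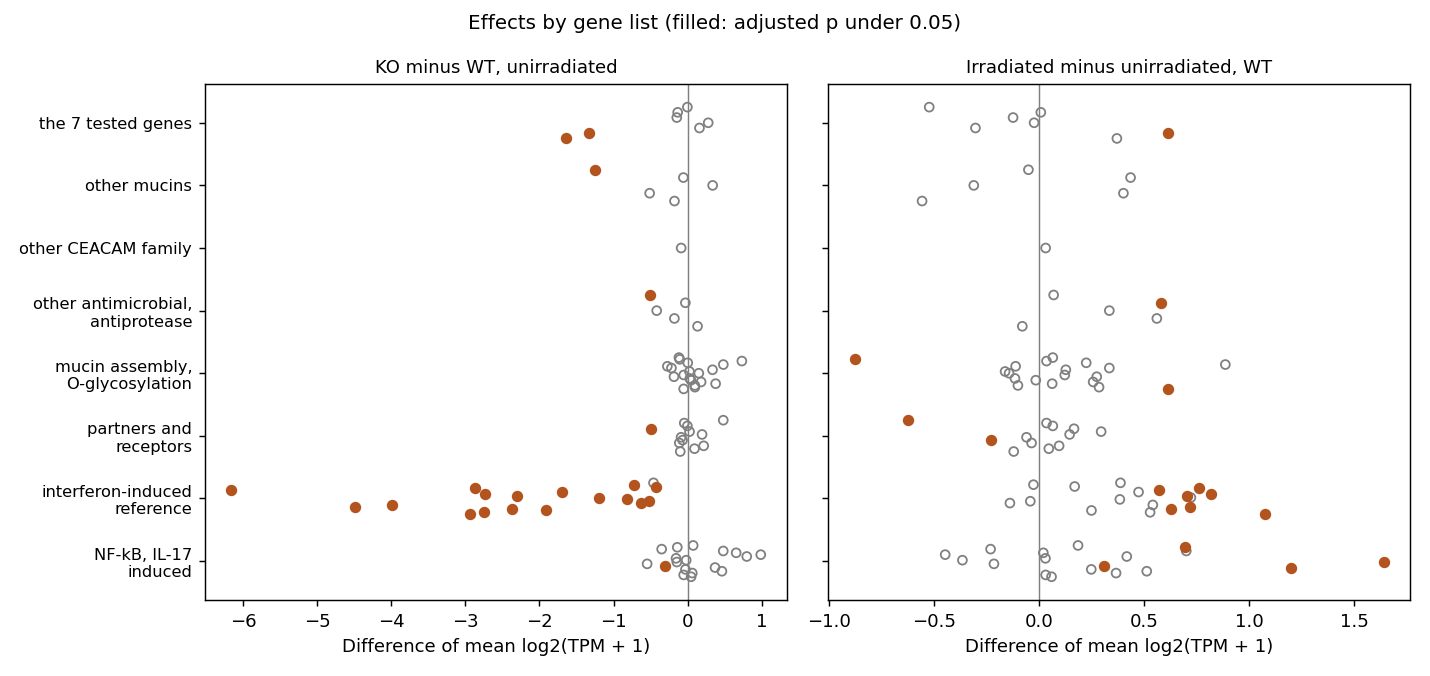
Differences of mean log2(TPM + 1) for the tested genes of each list (1 point a gene, filled where the limma adjusted p was under 0.05), for KO minus WT in unirradiated cells (left) and irradiated minus unirradiated WT cells (right). On the left the filled points of the 10 genes, BST2 and CEACAM1, lie at -1.64 and -1.33, PODXL lies at -1.25, and the interferon reference genes reach from -6.16 to -0.42.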

How the data were processed

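Polyadenylated RNA of 12 FaDu libraries had been sequenced as 100-base paired ends. The authors deposited gene-level TPM without filtering. The submitters' processing notes name HISAT2, StringTie, DESeq2 and hg38; versions, annotation and strand setting are not given in the sources used here. Each library sums to 1000000 TPM, so depth is unknown and no counting error could be given. The columns carry cell names (NT2 for WT, A63 for KO) and were tied to the sample labels by genotype, dose and replicate number.

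Values of log2(TPM + 1) from the deposited table entered limma 3.58.1 (R 4.3.3; 4 group means, trend, 8 residual degrees of freedom). Of all genes, 15973 reached a TPM of 1 in 3 libraries or more and were tested, with Benjamini-Hochberg adjustment over all of them and a threshold of 0.05. DESeq2, used by the authors, needs counts. Members below the filter were compared by two-sided exact permutation tests. On simulated data for the KO effect in unirradiated cells (15973 genes), the fit called 56.7%, 79.1% and 97% of genes changed by 0.5, 1 and 2 on the log2 scale, and 6 of 15773 unchanged genes.

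Genes named by rule are the 10 members, TMEM173, the cell type markers, the list genes past the threshold for the KO effect in unirradiated cells or the radiation effect in WT cells (at most 4 a list, by size), and the 3 genes nearest to a member past the threshold. Most others are marked as chosen after their values were seen. ISG15, IFIT1, MX1, RSAD2, CEACAM19 and LIPE-AS1 are also outside the rule, without a mark where they first appear. Of the interferon reference genes the rule also takes IFI27, IFIT2, IFIT3 and OASL, and of the NF-kB genes CXCL8 and TNFAIP3. Members, lists and alternatives were chosen with earlier results of these data known. Coordinates are from GENCODE 29 (GRCh38), promoter windows from RefSeq (GRCh38.p14), aligned with Biopython. Alternatives were a pseudocount of 0.1, quantile normalization, median-of-ratios factors, no filter, a filter at a mean TPM of 5, the replicate block, fits to the 6 libraries compared, and leaving out each library. Labels give no batch or date.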

Additional observations from a re-analysis of the deposited data

Results flagged for a closer look

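Among the 10 genes and the list genes named by rule, BST2 and OASL were picked out because radiation moved them in opposite directions in the 2 genotypes, with every irradiated WT library above and every irradiated KO library below the unirradiated libraries of its genotype. The difference between the radiation effects (KO minus WT, log2(TPM + 1) scale) was -0.605 for BST2 (SE 0.146, limma adjusted p = 0.575, with 0.442 to 0.815 over 18 alternatives). For OASL, an interferon-induced gene of the reference list, it was -0.728 (SE 0.174, limma adjusted p = 0.575, with 0.295 to 0.815 over 18 alternatives). In KO cells OASL was at a low level, at 1.01 to 1.10 TPM before and 0.585 to 0.992 TPM after radiation. That change was -0.16 on the log2(TPM + 1) scale (limma adjusted p = 0.553). Neither difference passed the correction over all genes. IFIT1, on the same reference list and named here after its values were seen, met the same condition, with a difference of -1.01 (SE 0.146, limma adjusted p = 0.141).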

How the results depend on the processing

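Across 643 values of the tested members under the alternatives, 610 kept their direction and side of the threshold, 8 calls were lost and 4 gained. The other 21 changed sign, none of them with a call. BST2 stayed past the threshold for both KO effects in 19 of 19 alternatives and CEACAM1 in 18 of 18. Except in the fit with no filter, CEACAM1 entered these fits only through its WT libraries, so its tally is a description. With a mean TPM of at least 5, CEACAM1 was not tested and 1 member was past the threshold for each KO effect. For radiation in WT cells 0 members were past it with a pseudocount of 0.1, a mean TPM of at least 5, the replicate block or only the 6 libraries compared, and 0 to 1 with a library left out (SLPI without irradiated WT replicate 1, otherwise CEACAM1). For radiation in KO cells 1 was past it with a pseudocount of 0.1 (CEACAM1) and 1 with only the 6 libraries (SLPI), and 0 to 1 with a library left out. With a library left out, both KO effects kept 2 members.

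Replicate numbers gave no sign of pairing. Same-numbered libraries correlated between -0.0602 and 0.0641 in their deviations from group means over 18 pairs, and other-numbered libraries between -0.0698 and 0.0566. In every other group at once, 0 libraries correlated best with their own number, though some did so in a single group. With the replicate block, 211 genes were past the threshold for the KO effect in unirradiated cells (276 without it) and 378 in irradiated cells (573 without it). For radiation they were 315 in WT (597) and 359 in KO cells (590), and for the difference 1 (3).

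Of the 42 related genes, 1 was past the threshold for the KO effect in unirradiated cells with only the 6 libraries and 1 to 3 with a library left out. For the KO effect in irradiated cells there were 4 with only the 6 libraries and 4 to 7 with a library left out. Radiation in WT cells gave 2 with the block, 2 with only the 6 libraries and 1 to 5 with a library left out. Radiation in KO cells gave 1 with no filter, 1 with the block, 1 with only the 6 libraries and 1 to 4 with a library left out. Counts over all genes ranged from 103 to 306, 252 to 567, 166 to 613, 195 to 655 and 1 to 9 in the order above. Apart from fewer libraries or genes in a fit, the cause was not tested. Low TPM and unknown depth limit what can be said of CEACAM1 in KO cells, CEACAM6 and MUC16.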
